A study of Homo sapiens with 12 samples.

Results

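Ribosomes inside mitochondria are made from RNA of the mitochondrial genome and from proteins that nuclear genes encode, and the genes of those proteins, whose symbols start with MRPL or MRPS, were followed here across 4 groups of cultured cells. They were taken by symbol, as every gene named MRPL or MRPS with a number and at most 1 closing letter A, B or C, which gave 78 of the 60617 genes of the deposited table. Of these, 49 carried the large-subunit prefix MRPL and 29 the small-subunit prefix MRPS.

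The mitochondrial ribosome translates the few messengers that mitochondrial DNA encodes, all of them core subunits of the respiratory chain and ATP synthase. Its small subunit reads the messenger and its large subunit joins the amino acids, each around 1 mitochondrial ribosomal RNA. Some of its proteins descend from bacterial ribosomal proteins and others were added in the mitochondrial lineage. The proteins are made in the cytosol, imported into the organelle and assembled there with the help of dedicated GTPases, helicases and RNA-modifying enzymes. Names do not always give the place: the products of MRPS18A and MRPS30 sit in the large subunit, and that of MRPS36 is a part of the 2-oxoglutarate dehydrogenase complex.

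RNA was sequenced from 12 libraries of PANC-1, an established human pancreatic ductal adenocarcinoma line labelled as wild type, in 4 groups of 3. The groups were siGL3, a control siRNA against luciferase; siMYOF, an siRNA against myoferlin, a membrane protein of the ferlin family; DMSO, the solvent; and WJ460, a small molecule directed at myoferlin, at 50 nM. The labels give 48 h for all libraries, and for the siRNA groups the study counted this time from a wash after transfection. All 12 libraries came from 1 cell line, so they hold no variation between people or tumours. Replicate 1 on each siRNA side carries an earlier batch label than the other 10 libraries, so the comparison of the siRNAs held 1 early and 2 late libraries a side, and that of the drug was wholly late. Cultures for the knockdown were seeded separately, which is not stated for DMSO and WJ460, so p-values there measure only the spread between libraries, which may be technical.

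MYOF itself had normalised counts of 12786, 20168 and 17823 in siGL3 and 3470.2, 2372 and 2003 in siMYOF, and the groups lay far apart. Here and below, differences are in log2(normalised count + 1), ± their SE, with the adjusted p of limma over all tested genes. MYOF fell by 2.71 ± 0.23 (adjusted p = 2.4e-05). With WJ460 its messenger differed from DMSO by 0.16 (adjusted p = 0.603). Libraries held 12335147 to 19847210 reads, and the members took 0.480% to 0.572% of them. Of 5 ductal carcinoma keratins, 4 were measured above the filter (KRT8, KRT18, KRT19 and KRT80), and KRT7 was not. Of 13 markers of blood, vessel, stromal, acinar and islet cells 2 were above it (CD68 and PDGFRB). Acinar CPA1 and islet INS and GCG were listed at 0 in every group. Some of these markers moved with the treatments: with siMYOF KRT80 fell by 2.86 ± 0.14 (adjusted p = 2.0e-11) and KRT8 by 0.96 ± 0.11 (adjusted p = 2.8e-06) while KRT18 rose by 0.82 ± 0.09 (adjusted p = 8.0e-07), and with WJ460 KRT8 and KRT18 rose, KRT19 and KRT80 fell, and PDGFRB, a stromal marker, fell by 1.16 ± 0.23 (adjusted p = 3.2e-04). The 13 markers of other cells summed to 65.5 to 94.9 normalised counts in siGL3, 54.4 to 75.4 in siMYOF, 31.5 to 47.2 in DMSO and 15.6 to 33.7 in WJ460, and their part in the results was not tested. Replicates differed by more than sampling noise in each pair. The chi-square per gene was 1.47 to 2.25 between DMSO libraries and higher within the other groups. Each library counted as 1 sample, though this excess cannot tell separate cultures from technical repeats. The early libraries stood apart from the late ones of their groups (45.8 to 72.9 per gene, against 4.26 and 8.25 between late ones), and WJ460 replicate 1 from the other WJ460 libraries (11.6 and 12.0, against 3.58).

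Sequences just before the start sites are shown first, because the members shared letters there. RefSeq (GRCh38.p14) gave 300 bases, 250 before and 50 after the start, for 69 of the 78 members. The first start listed for a gene was used, and other starts were not searched. The core of the ETS family site, CCGGAAG, stood on either strand in 29 of 69 members, or 42.0%, against 10.7% of all 27305 promoters and 19.4% of the 10327 of tested genes. A YY1 core, ATGGCGGC, stood in 19, or 27.5%, against 3.21% and 6.28%. The NRF1 core CGCATGCG, which reads the same on both strands, stood in 3, or 4.35%, against 2.19% and 3.99%. None of these 3 strings contains another. YY1 cores stood in 0 of 17 matched members that fell with siMYOF, in 4 of 17 that rose and in 14 of 33 that did not pass the test. ETS cores stood in 8, 7 and 13 of the same groups. A match is a description of letters and not a bound site.

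Below are the 100 bases just before the start of members that hold such a core there, up to 3 from each pattern of response by size of difference, written 5′ to 3′ on the gene's strand with the cores in capitals. CTTCCGG is the ETS core and GCCGCCAT the YY1 core read from the other strand. The first set fell with siMYOF and rose with WJ460.
MRPL33 (chr2:27771619-27771718, + strand): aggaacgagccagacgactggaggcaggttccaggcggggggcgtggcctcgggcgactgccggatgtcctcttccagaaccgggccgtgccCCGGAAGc
MRPL40 (chr22:19432445-19432544, + strand): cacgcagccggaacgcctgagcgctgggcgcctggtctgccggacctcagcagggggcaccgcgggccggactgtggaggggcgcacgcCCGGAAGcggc
MRPL3 (chr3:131502972-131503071, - strand): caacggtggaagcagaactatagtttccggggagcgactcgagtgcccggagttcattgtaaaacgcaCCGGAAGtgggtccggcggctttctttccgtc
The next set fell with siMYOF and did not pass the test with WJ460.
MRPL17 (chr11:6683341-6683440, - strand): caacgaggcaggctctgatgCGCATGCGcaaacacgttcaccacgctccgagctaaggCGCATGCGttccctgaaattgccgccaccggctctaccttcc
MRPS21 (chr1:150293761-150293860, + strand): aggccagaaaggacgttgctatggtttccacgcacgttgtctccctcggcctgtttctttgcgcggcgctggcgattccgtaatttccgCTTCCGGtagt
MRPL54 (chr19:3762582-3762681, + strand): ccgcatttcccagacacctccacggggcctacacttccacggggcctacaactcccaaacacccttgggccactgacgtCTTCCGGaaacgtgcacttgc
The following set rose with both treatments.
MRPS23 (chr17:57850045-57850144, - strand): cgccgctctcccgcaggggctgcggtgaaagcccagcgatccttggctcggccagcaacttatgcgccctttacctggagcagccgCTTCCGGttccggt
MRPS31 (chr13:40771191-40771290, - strand): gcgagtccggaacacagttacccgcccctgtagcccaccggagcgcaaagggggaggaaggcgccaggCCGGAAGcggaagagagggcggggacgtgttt
MRPL27 (chr17:50373185-50373284, - strand): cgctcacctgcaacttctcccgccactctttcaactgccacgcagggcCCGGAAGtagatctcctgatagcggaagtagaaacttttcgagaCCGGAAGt
The last set fell with WJ460.
MRPL36 (chr5:1799838-1799937, - strand): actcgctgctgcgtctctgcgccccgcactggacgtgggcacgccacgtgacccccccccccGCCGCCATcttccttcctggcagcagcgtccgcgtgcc
MRPL19 (chr2:75646683-75646782, + strand): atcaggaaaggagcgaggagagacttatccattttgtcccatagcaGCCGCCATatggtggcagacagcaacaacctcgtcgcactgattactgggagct
MRPS34 (chr16:1773135-1773234, - strand): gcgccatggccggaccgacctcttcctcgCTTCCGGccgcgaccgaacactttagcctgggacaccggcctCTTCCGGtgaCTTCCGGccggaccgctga
Because these members were chosen for holding a core, the set says nothing of how common it is. The ETS core stood close to the start in members of all 4 patterns, with 3 copies in MRPS34 and 2 in MRPL27, and MRPL17 held 2 copies of the NRF1 core.

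Members also often faced another gene. A protein-coding gene on the other strand started within 1000 bp of 27 of 78 members, or 34.6%, against 18.3% of the 12341 protein-coding genes tested. Both genes of such a pair were tested for 25 members, with MRPL46 and MRPS11, which face each other, counted from both sides. Both passed the test with siMYOF in 5 of these, 2 of them in the same direction, and with WJ460 in 8, 6 of them in the same direction. Of all tested genes 28% rose and 25.9% fell with siMYOF, and 27.3% and 25.6% with WJ460. How often both genes passed over all such pairs was not counted. The pairs in the same direction with siMYOF were MRPL11 with PELI3, both lower, and MRPL51 with NCAPD2, both higher. MRPL32 rose with siMYOF while PSMA2, a proteasome subunit gene 191 bp away, fell by 0.68 (adjusted p = 0.0019). MRPL57 fell while SKA3, a kinetochore gene 106 bp away, rose by 0.81 (adjusted p = 1.8e-06).

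Levels were compared between genes per kb of transcript, using the Ensembl canonical transcript of GENCODE 44, since longer transcripts collect more reads. Of the 78 members, 76 had a mean normalised count of at least 5 and were tested, 48 MRPL and 28 MRPS. MRPL53 was listed at 0 in every library, and MRPS24 had 0 to 5 reads a library. In 6 members (MRPL12, MRPL38, MRPL46, MRPL53, MRPS24 and MRPS28) at least 50% of the exon bases lay in another gene of the same strand, so their values do not tell their level. Over the other 72, the DMSO mean ranged from 85.3 normalised counts per kb in MRPS25 to 2880 in MRPS12, a 33.8-fold range with a median of 568. MRPS12, the protein at the decoding centre, was followed by MRPL51 with 2118 per kb and MRPL20 with 1906 per kb. The median coefficient of variation among the 3 libraries of a group was 4.09% in DMSO, 5.61% in WJ460, 9.97% in siMYOF and 13.4% in siGL3.

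**Figure D1:**
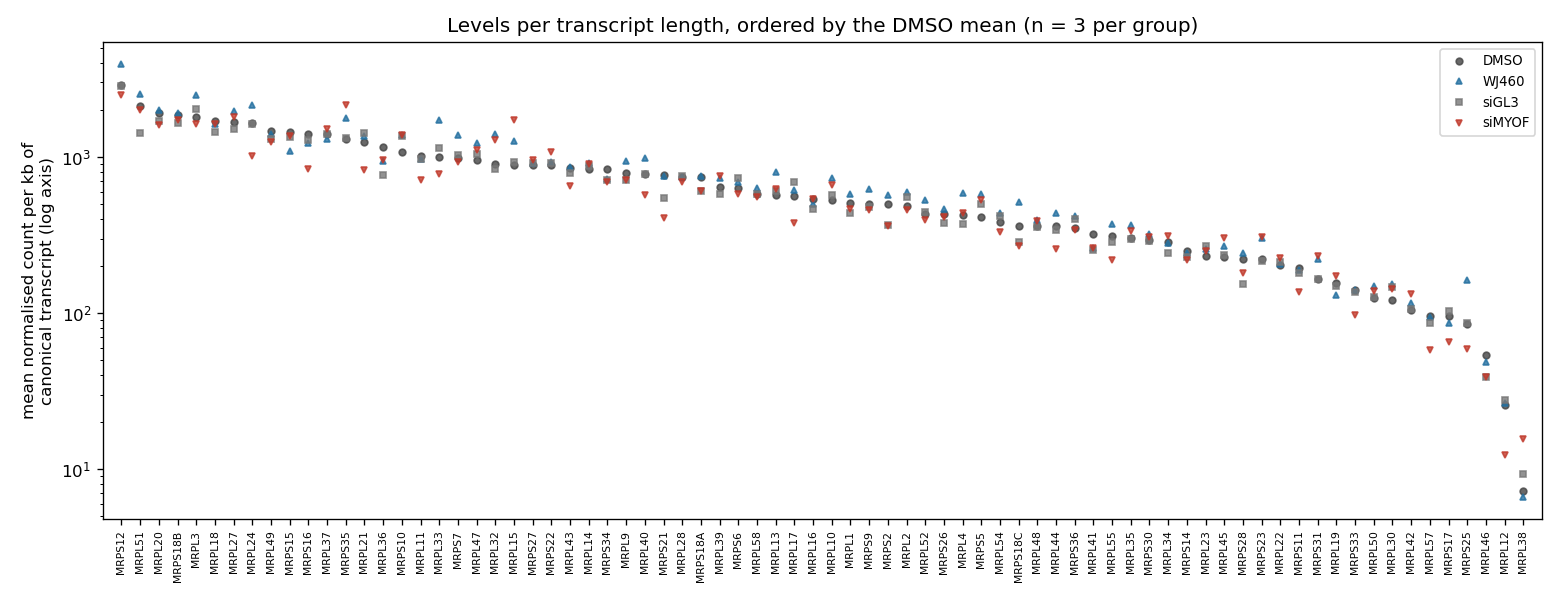
Mean normalised count per kb of canonical transcript (log axis) of the 76 tested members in each group of 3 libraries, ordered by the DMSO mean. MRPS12 is highest at 2880 per kb in DMSO, and MRPL38, MRPL12 and MRPL46, at the right, are among the members covered by another gene.

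Summed over members, levels overlapped between the siRNA groups and were higher with WJ460 than with DMSO. The summed normalised count was 72577 ± 6684 in siGL3 and 73326 ± 2762 in siMYOF (SD, n = 3 each), and the groups overlapped. It was 74181 ± 51.9 in DMSO, where it ranged from 74138 to 74239, and 84756 ± 3540 in WJ460, from 81769 to 88667, with no overlap. As a share of all reads, however, the members took 0.538% to 0.546% in DMSO and 0.544% to 0.572% in WJ460, and these overlapped. Mitochondrially encoded genes took 2.95% to 3.1% of reads in DMSO and 3.88% to 5.06% in WJ460, and in the siRNA groups 3.81% and 4.72% in the early libraries against 2.84% to 3.21% in the late ones. The part of this share in the results was not tested. In bulk RNA, fewer cells with a messenger and less of it per cell cannot be told apart.

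Large and small subunit sums were close to proportional. The ratio of summed MRPL to summed MRPS counts was 1.31 to 1.40 in siGL3, 1.31 to 1.43 in siMYOF, 1.33 to 1.37 in DMSO and 1.33 to 1.37 in WJ460. With MRPS18A and MRPS30 counted as large and MRPS36 left out, it was 1.43 to 1.53 over all 12 libraries. The highest ratio of the siRNA groups was in the early library on both sides, at 1.40 and 1.43.

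**Figure D2:**
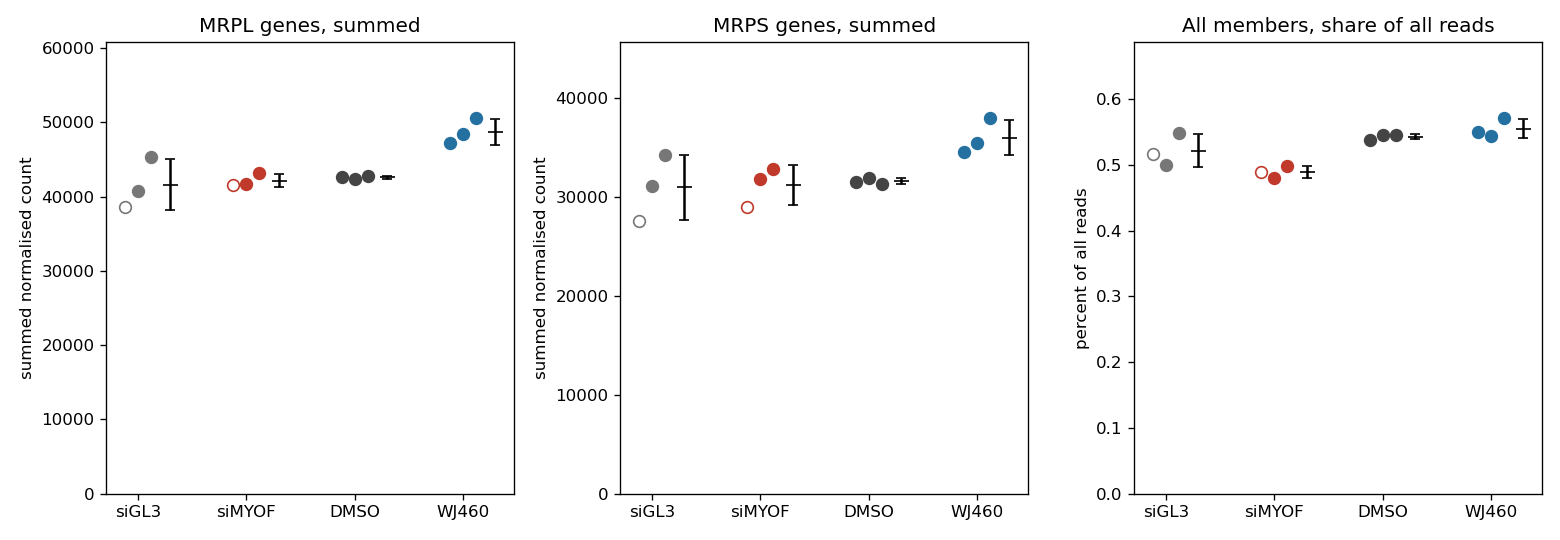
Summed normalised counts of the 49 MRPL and the 29 MRPS genes and the members' share of all reads (percent), by library, with open circles for the early batch and bars for the mean and SD of 3 libraries. Both sums are higher in all 3 WJ460 libraries than in any DMSO library, while the shares of reads of those groups overlap at 0.544% to 0.546%.

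With siMYOF the members split evenly. At an adjusted p under 0.05 over all 14720 genes, 20 of 76 were higher and 20 lower than in siGL3, or 26.3% each way, beside 28% of all tested genes higher and 25.9% lower. Their median log2 difference was 0.02, against 0.01 over all genes, and the differences that passed were mostly small, with medians of 0.35 for the rises and -0.45 for the falls. Of 48 MRPL genes 16 rose and 12 fell (median 0.04), and of 28 MRPS genes 4 rose and 8 fell (median -0.01). By place in the ribosome, 16 of 50 large-subunit genes rose and 12 fell, and 4 of 25 small-subunit genes rose and 7 fell. When values were instead scaled by total reads, which moved the median of all genes to -0.10, 9 members rose and 27 fell, so the even split holds relative to that median only.

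The small subunit was also counted by descent, without a test between the classes. Members with a bacterial counterpart came from a fixed list, which held MRPS18C alone of its family. MRPS18A and MRPS18B were counted, here and below, among members without one. Of 15 tested small-subunit members with a bacterial counterpart, 0 rose and 5 fell with siMYOF (MRPS16, MRPS17, MRPS21, MRPS11 and MRPS6); by limma 0 were higher at an unadjusted p under 0.05 as well, and edgeR and DESeq2 each called 0 higher. The falls are 33.3% of these members, beside 25.9% of all tested genes, and numbered 7 by edgeR, 5 by DESeq2 and 8 when scaled by total reads. MRPS21, MRPS11 and MRPS6 are named here after their values were seen, as are MRPS22 and MRPS33 below. Of the 10 small-subunit members without one, 4 rose (MRPS35, MRPS23, MRPS31 and MRPS22) and 2 fell (MRPS25 and MRPS33). In the large subunit 11 of 30 with a counterpart rose and 7 fell, or 36.7% and 23.3%. Of 20 without one 5 rose and 5 fell, or 25% each way. Of all tested genes 28% rose and 25.9% fell.

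Falls with siMYOF were led by proteins of the large subunit (positions of genes are given on GRCh38, from GENCODE 44, over the whole gene with introns). MRPL17, which lies near the exit of the peptide tunnel (chromosome 11:6680385-6683340, - strand), had 1307, 1572 and 1904 normalised counts in siGL3 and 886, 839 and 903 in siMYOF. All siMYOF libraries were below all siGL3 libraries, and it fell by 0.85 ± 0.09 (adjusted p = 1.4e-07). MRPL21 (chromosome 11:68891276-68903835, - strand) had 899, 962 and 1086 against 568, 512 and 635, again without overlap, and fell by 0.78 ± 0.08 (adjusted p = 2.7e-07). With WJ460 neither passed the test, with log2 differences of 0.12 (adjusted p = 0.25) and 0.11 (adjusted p = 0.266).

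Small-subunit genes fell as well. MRPS16 (chromosome 10:73248843-73252693, - strand), in which inherited mutations impair mitochondrial translation, had 2708, 3551 and 3726 in siGL3 and 1731, 2297 and 2432 in siMYOF. The groups did not overlap, and it fell by 0.63 ± 0.06 (adjusted p = 4.1e-08). It was the only member that fell with both treatments: WJ460 libraries had 3164, 3015 and 3279 against 3659.6, 3647 and 3566 in DMSO, a fall by 0.20 ± 0.06 (adjusted p = 0.0065). MRPS17, at 216, 163 and 169 against 119, 126 and 103, fell by 0.64 ± 0.15 (adjusted p = 0.0011), and the mitochondria-specific large-subunit member MRPL57, at 175, 171 and 230.2 against 117, 126 and 144, fell by 0.56 ± 0.13 (adjusted p = 0.0018). Neither pair of groups overlapped. MRPL54 fell by 0.32 ± 0.11 (adjusted p = 0.019) with siMYOF; without siGL3 replicate 3 or siMYOF replicate 2 its adjusted p was 0.145 and 0.081.

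Rises with siMYOF were led by MRPL15 and MRPS35. MRPL15 (chromosome 8:54135241-54148514, + strand) had 1403, 1587 and 1858 in siGL3 and 2956, 2889.9 and 3073 in siMYOF, where the lowest siMYOF library was well above the highest siGL3 library. It rose by 0.89 ± 0.07 (adjusted p = 1.1e-08). MRPS35 (chromosome 12:27710822-27756295, + strand), a mitochondria-specific protein of the small subunit, had 2522, 2219 and 2471 against 4381, 3767 and 3722, without overlap, and rose by 0.72 ± 0.06 (adjusted p = 2.2e-08). MRPL32 (chromosome 7:42932376-42948958, + strand), whose precursor is cut by the m-AAA protease before it joins the ribosome, had 858, 609 and 682 against 1264, 991 and 1068 and rose by 0.64 ± 0.07 (adjusted p = 6.9e-07). MRPS23 rose by 0.52 ± 0.07 (adjusted p = 2.1e-06), from 1151, 1175 and 1284 to 1646, 1738 and 1804, and MRPS31 by 0.49 ± 0.10 (adjusted p = 4.6e-04); pseudogenes of MRPS31 held reads equal to 6.46% of its own. MRPL39 rose by 0.39 ± 0.08 (adjusted p = 3.7e-04).

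MRPL38 gave the highest fitted rise, 1.15 ± 0.45 (SE), on counts of 29.6, 5.65 and 2.81 in siGL3 and 31.9, 11.4 and 19.97 in siMYOF. These overlap, and 94.3% of its exon bases lie in another gene. The call was lost by edgeR (adjusted p = 0.127) and DESeq2 (0.088), without siGL3 replicate 2 (adjusted p = 0.056) or 3 (0.188) and without siMYOF replicate 2 (0.062) or 3 (0.207). MRPL12, the stalk protein that recruits translation factors and is also known to bind the mitochondrial RNA polymerase, was as low, at 13.4, 15.8 and 55.2 against 11.6, 10.2 and 15.5, with a difference of -0.85 (adjusted p = 0.077) that passed the test once replicate numbers were blocked (adjusted p = 0.030).

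**Figure D3:**
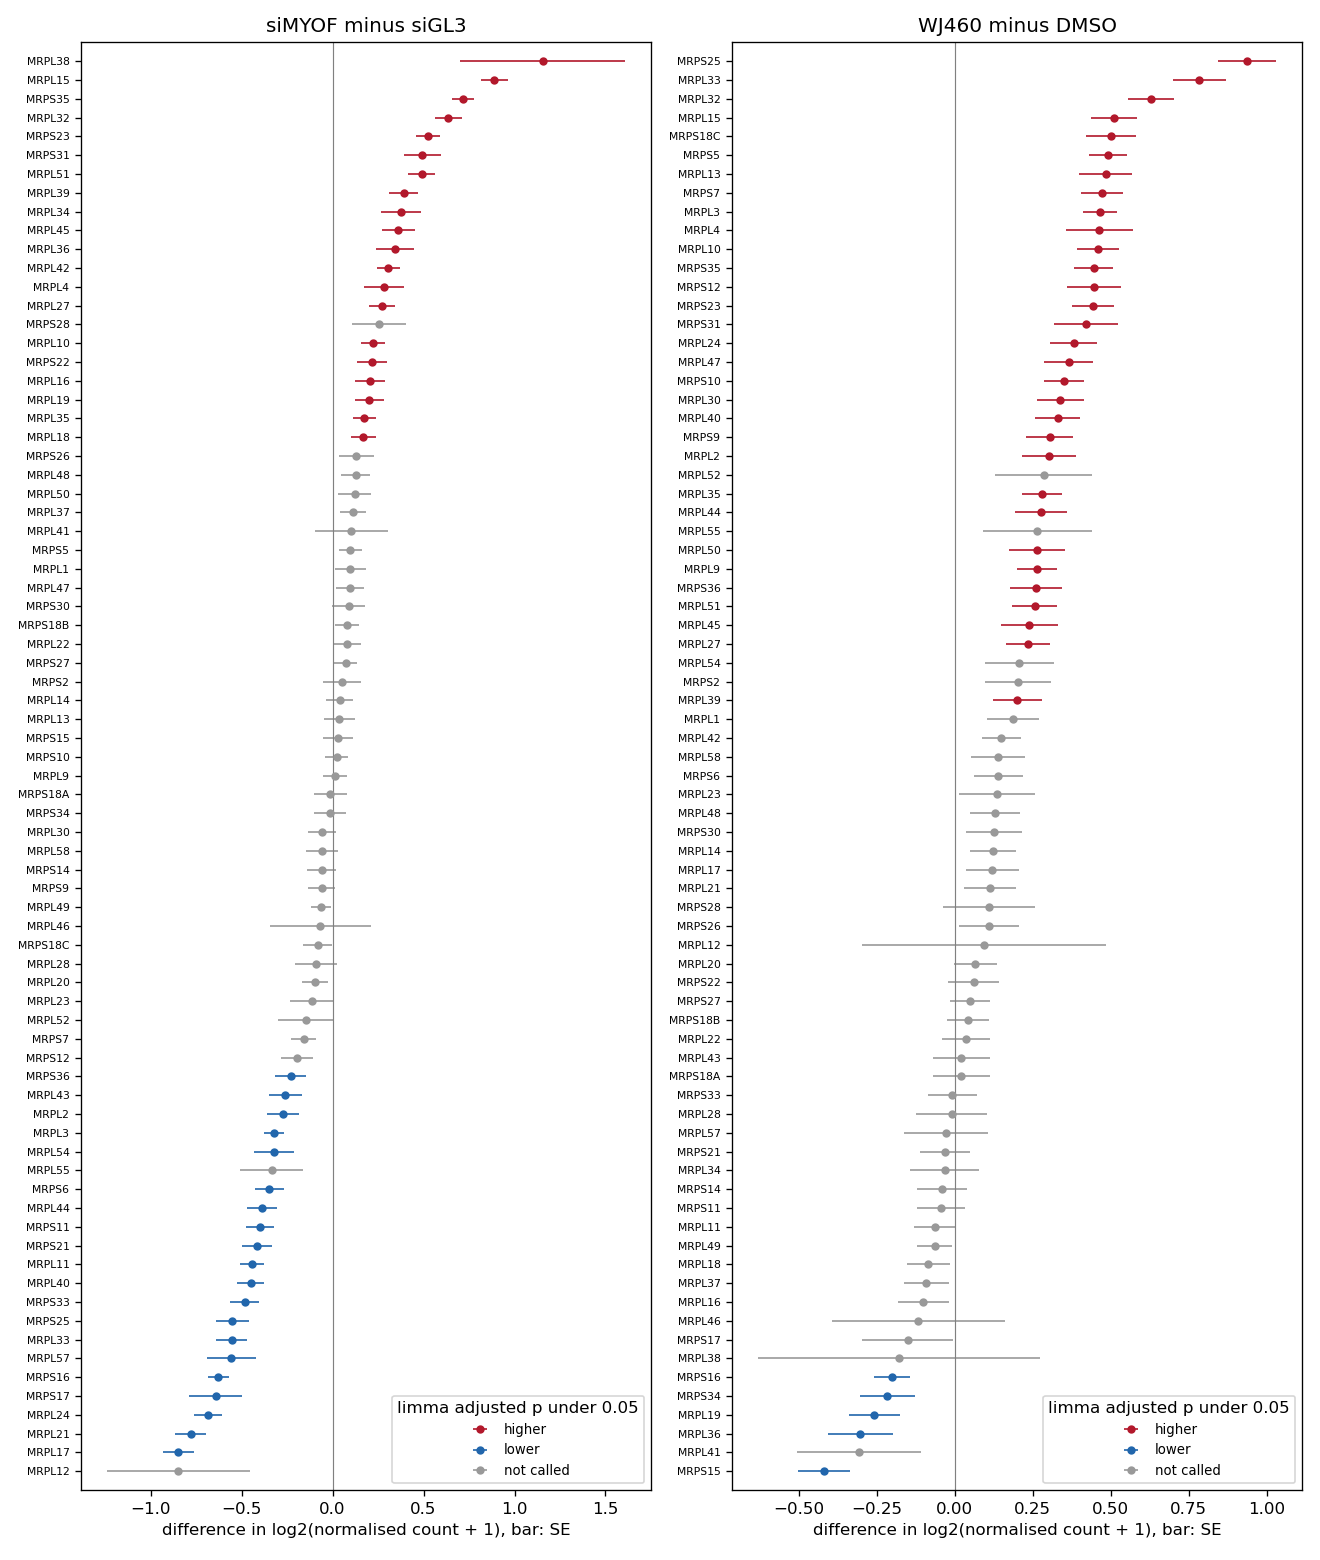
Log2 differences of the 76 tested members, ranked within each comparison, with bars for the SE and colours for the call at an adjusted p under 0.05 (limma). With siMYOF (left) 20 members are higher and 20 lower; with WJ460 (right) 31 are higher and 5 lower.

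With WJ460 more members rose than fell. Compared with DMSO 31 of 76 were higher and 5 lower, or 40.8% and 6.58%, beside 27.3% and 25.6% of all tested genes, and their median log2 difference was 0.14, against 0.00 over all genes. By name, 20 of 48 MRPL genes were higher and 2 lower (median 0.17), as were 11 of 28 MRPS genes with 3 lower (median 0.12). Scaling by total reads moved the median of all genes to -0.15 and that of the members to -0.02, with 18 members higher and 11 lower. Their median thus lay above that of all genes under both scalings, but its sign depended on the scaling.

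MRPS25 gave the highest rise of any member with WJ460. This mitochondria-specific protein of the small subunit (chromosome 3:15009611-15065339, - strand) had 371, 424 and 376 normalised counts in DMSO and 714, 736 and 795 in WJ460, and rose by 0.94 ± 0.09 (adjusted p = 1.3e-07). MRPL33 (chromosome 2:27771717-27988087, + strand), a small protein of bacterial descent, had 550.4, 466 and 509 against 839, 861 and 925 and rose by 0.78 ± 0.09 (adjusted p = 4.0e-07). In both genes the WJ460 libraries were all above the DMSO libraries. MRPL32 rose by 0.63 ± 0.07 (adjusted p = 8.9e-07) and MRPL15 by 0.51 ± 0.07 (adjusted p = 1.1e-05), the genes that had also risen with siMYOF.

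In the large subunit 14 of 30 members with a bacterial counterpart rose with WJ460 and 2 fell, or 46.7% and 6.67%. Of 20 without one, 6 rose and 0 fell, or 30% and 0%. In the small subunit 6 of 15 with a counterpart rose and 2 fell, or 40% and 13.3%. Of 10 without one, 4 rose and 1 fell, or 40% and 10%. Beside these stand 27.3% higher and 25.6% lower of all tested genes, and no test compared the classes. MRPS7, of the head of the subunit, had 1202, 1216 and 1162 against 1582, 1609 and 1785 and rose by 0.47 ± 0.07 (adjusted p = 1.1e-05), MRPS5 rose by 0.49 ± 0.06 (adjusted p = 1.9e-06) and MRPS12, the most abundant member per kb, rose by 0.45 ± 0.09 (adjusted p = 3.2e-04), from 2657, 2852 and 2777 to 3509.5, 3655 and 4151. With siMYOF, MRPS12 had a difference of -0.20 (adjusted p = 0.066), and an adjusted p of 0.014 once replicate numbers were blocked. In the large subunit, MRPL13 (789.6, 666 and 707 against 912, 1029.8 and 1086) rose by 0.48 ± 0.09 (adjusted p = 1.1e-04). Within the MRPS18 family 1 of 3 genes passed the test. MRPS18C rose by 0.50 ± 0.08 (adjusted p = 3.5e-05), while MRPS18A and MRPS18B had differences of 0.02 (adjusted p = 0.863) and 0.04 (adjusted p = 0.613). A gene on the other strand covers 83.6% of the exon bases of MRPS18C and 60.6% of those of MRPS18A, and whether the counting used strand is not given in the sources used here.

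Falls with WJ460 were few and small. MRPS15 (chromosome 1:36455718-36464384, - strand), whose bacterial relative binds small-subunit RNA, had 1376, 1371 and 1402 in DMSO and 1081, 948 and 1078 in WJ460, and fell by 0.42 ± 0.08 (adjusted p = 2.8e-04). With siMYOF it had a difference of 0.03 (adjusted p = 0.774), and the 2 effects differed by 0.45 (adjusted p = 0.0034). MRPS34, mutated in some cases of Leigh syndrome, fell by 0.22 ± 0.09 (adjusted p = 0.045), with an adjusted p of 0.061 by DESeq2; leaving out any 1 DMSO library or WJ460 replicate 1 or 2 ended that call (adjusted p 0.052 to 0.182), as did leaving out siMYOF replicate 2 or 3 (0.0502 and 0.0552).

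Each treatment had its own control, so the 2 effects could be subtracted. The siRNA and drug sides also differ in transfection, solvent and the early batch. In this difference these cannot be told apart from the treatments. The siMYOF effect minus the WJ460 effect passed the test in 37 of 76 members, 8 higher and 29 lower, beside 24.2% higher and 24% lower of all tested genes, with a median of -0.16. By name, 6 of 48 MRPL genes were higher and 16 lower in this difference, and 2 of 28 MRPS genes were higher and 13 lower.

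Opposite calls were made for 10 members: 8 fell with siMYOF and rose with WJ460, or 10.5% of members against 5.52% of all tested genes, and 2 rose with siMYOF and fell with WJ460, or 2.63% against 6.05%. The difference between the effects passed the test in all 10 of these. This was nearly fixed in advance, as 2 called effects of opposite sign make their difference large, so it adds no support. MRPS25 had 396, 360.2 and 428 in siGL3 and 254, 287 and 265 in siMYOF, a fall by 0.55 ± 0.09 (adjusted p = 5.6e-05). Its effects differed by -1.49 (adjusted p = 4.8e-08), more than those of any other member. MRPL33, at 696, 482 and 564 against 486, 349 and 351, fell by 0.56 ± 0.09 (adjusted p = 2.0e-05); siMYOF replicate 1, an early library, lay above siGL3 replicate 2, but each siMYOF library was below the siGL3 library of its batch, and the effects differed by -1.34 (adjusted p = 6.2e-08).

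MRPL24 (chromosome 1:156737303-156741590, - strand), which lies at the tunnel exit and whose bacterial relative starts the assembly of its subunit, fell from 1285, 1389 and 1603 to 752, 897 and 1022, by 0.68 ± 0.08 (adjusted p = 4.1e-07). It rose from 1509, 1457 and 1418 to 1819.6, 1854 and 2044, by 0.38 ± 0.08 (adjusted p = 3.2e-04), without overlap on either side. MRPL3 (chromosome 3:131462212-131502983, - strand), which reaches toward the site of peptide bond formation, had 3397, 3429 and 3589 against 2740.3, 2818 and 2774 and fell by 0.32 ± 0.06 (adjusted p = 7.2e-05). With WJ460 it had 4138, 4367 and 4270.2 against 3141, 3003 and 3109.8 and rose by 0.47 ± 0.06 (adjusted p = 1.2e-06). Neither comparison of MRPL3 had overlapping groups.

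MRPL40 (chromosome 22:19432545-19436075, + strand), a gene of the region deleted in DiGeorge syndrome, had 513, 595 and 620.5 in siGL3 and 359, 442 and 466 in siMYOF and fell by 0.45 ± 0.07 (adjusted p = 3.4e-05). From 579.9, 596 and 571 in DMSO it rose to 748, 732 and 716 in WJ460, by 0.33 ± 0.07 (adjusted p = 8.2e-04). MRPL44 (chromosome 2:223957463-223967714, + strand), a protein with an RNase III fold that is mutated in some infantile cardiomyopathies, had 577, 568 and 569.9 against 473, 420 and 419 and fell by 0.39 ± 0.08 (adjusted p = 6.9e-04). With WJ460 it had 652, 796 and 769 against 631, 613 and 579 and rose by 0.28 ± 0.08 (adjusted p = 0.0096); without DMSO replicate 3 or WJ460 replicate 2 the rise had an adjusted p of 0.052 and 0.059. MRPL2, whose bacterial relative is a core protein of the peptidyl transferase region, fell by 0.27 ± 0.09 (adjusted p = 0.013) and rose by 0.30 ± 0.09 (adjusted p = 0.0066); its fall was lost without siGL3 replicate 3 (0.087) or siMYOF replicate 2 (0.092). MRPS36, the dehydrogenase subunit, fell by 0.23 ± 0.08 (adjusted p = 0.026) and rose by 0.26 ± 0.08 (adjusted p = 0.014). Both of its calls were lost by leaving out single libraries: the fall without siGL3 replicate 3 (0.140) or siMYOF replicate 2 (0.113) or 3 (0.0502), and the rise without DMSO replicate 3 (0.056) or WJ460 replicate 3 (0.066). When values were scaled by total reads, the rises with WJ460 of MRPL40 (adjusted p = 0.067), MRPL44 (0.224), MRPL2 (0.167) and MRPS36 (0.318) did not pass the test.

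Of the 2 genes with the other order, MRPL36 (chromosome 5:1798385-1801366, - strand), a very short protein of bacterial descent, had 344, 479 and 575 in siGL3 and 555, 582 and 598 in siMYOF, where siGL3 replicate 3 lay inside the siMYOF range. It rose by 0.34 ± 0.10 (adjusted p = 0.0096), its difference was 0.69 between early libraries and 0.17 between late ones, and the adjusted p was 0.208 in the late libraries alone, 0.209 without siGL3 replicate 1 and 0.212 without siMYOF replicate 1. With WJ460 it fell from 673, 700.5 and 741 to 577, 622 and 519, by 0.30 ± 0.10 (adjusted p = 0.02), and this call was lost without DMSO replicate 3 (0.083) or WJ460 replicate 3 (0.105). MRPL19 (chromosome 2:75646783-75690851, + strand), whose bacterial relative lies where the subunits meet, had 1167, 1264 and 1088 against 1279, 1435 and 1333 and rose by 0.20 ± 0.08 (adjusted p = 0.042) with siMYOF. With WJ460 it had 906, 1112 and 1044 against 1231, 1164 and 1255 and fell by 0.26 ± 0.08 (adjusted p = 0.012). Its rise was lost without any 1 library of siGL3 replicate 1 or 3, of siMYOF or of DMSO (0.053 to 0.202), by DESeq2 (0.052), with TMM scaling (0.054) and with scaling by total reads, where the difference was 0.09 (0.347). Its fall was lost without DMSO replicate 3 (0.053) or WJ460 replicate 1 (0.070).

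**Figure D4:**
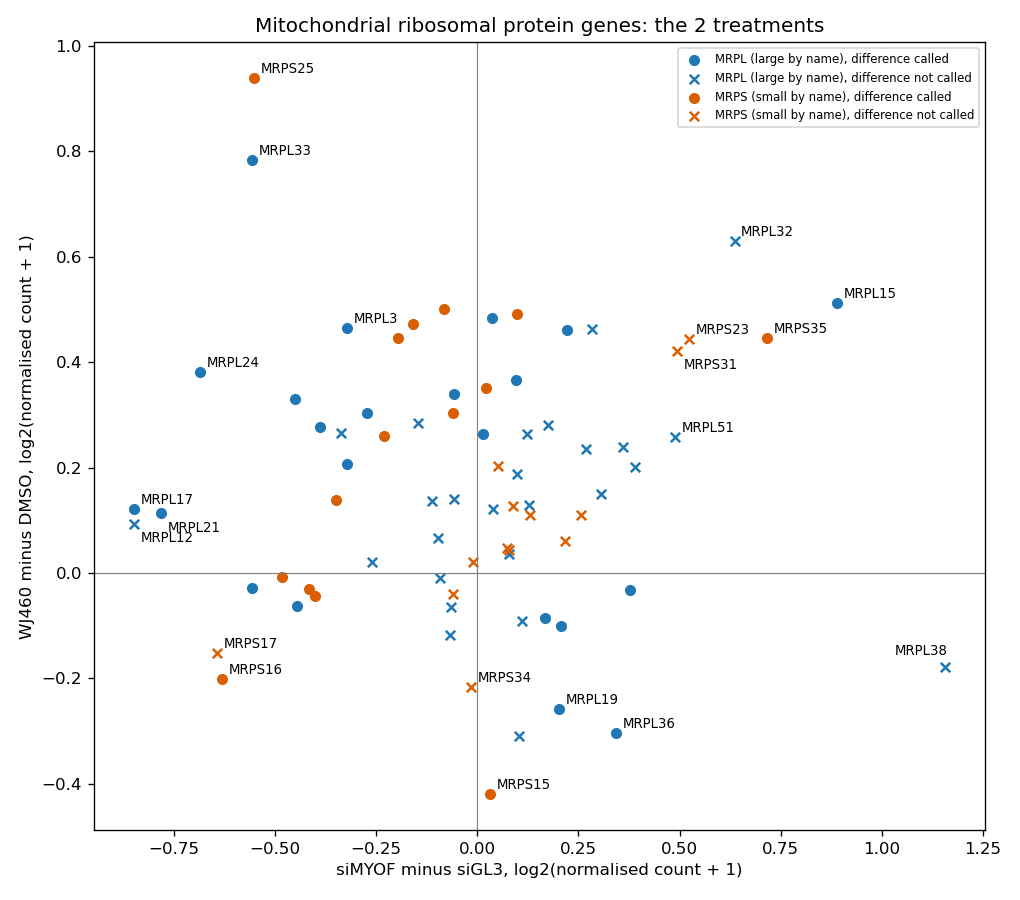
Log2 difference with siMYOF (horizontal) against that with WJ460 (vertical) for the 76 tested members, blue for MRPL and orange for MRPS, with circles where the difference between the 2 effects passed the test and crosses where it did not. MRPS25 and MRPL33 lie highest, left of 0; MRPL15, MRPS35 and MRPL32 lie at the upper right; MRPS15 lies lowest.

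With both treatments 12 members rose, or 15.8% against 11.6% of all tested genes, and 1 fell with both, or 1.32% against 8.87%. In 3 of the 12 the size differed between the treatments. MRPL15 rose more with siMYOF, its effects differing by 0.38 (adjusted p = 0.0055), and so did MRPS35, by 0.27 (adjusted p = 0.016), though the latter had an adjusted p of 0.055 without either early library. MRPL10, named after its values were seen, rose more with WJ460, with a difference of -0.24 (adjusted p = 0.046), but any 1 library of siGL3 or DMSO, siMYOF replicate 1 or 2, or WJ460 replicate 2 or 3, when left out, ended that call (0.056 to 0.130). For MRPL32 the effects differed by 0.01 (adjusted p = 0.967) with an SE of 0.10, and for MRPS23 by 0.08 (adjusted p = 0.508) with an SE of 0.09. MRPL39 was among the 12, but its rise with WJ460, 0.20 ± 0.08 (adjusted p = 0.04), lost the call when any 1 DMSO library or WJ460 replicate 2 or 3 was left out (0.081 to 0.156), by DESeq2 (0.052), and with scaling by total reads, where the difference was 0.04 (0.662).

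**Figure D5:**
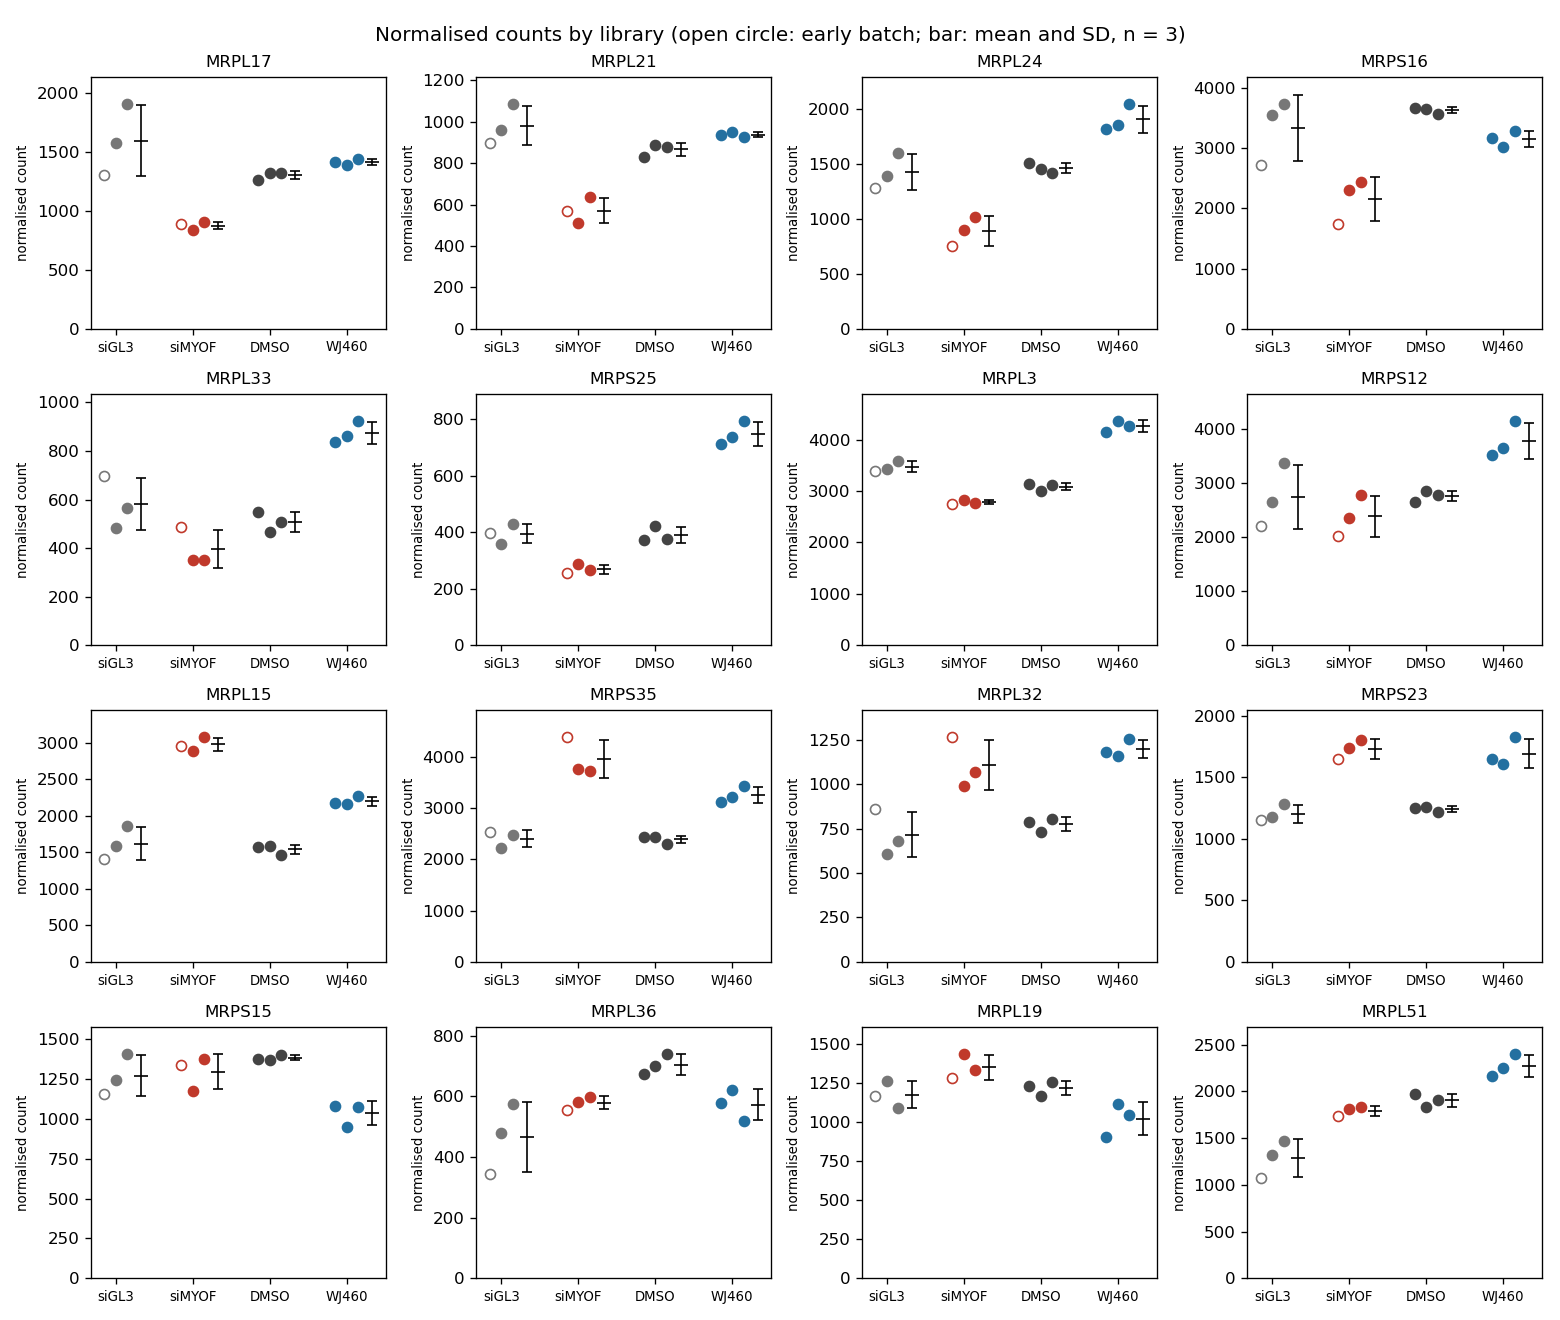
Normalised counts of 16 members by library, with open circles for the early batch and bars for the mean and SD of 3 libraries. MRPL17, MRPL21 and MRPL24 are lower in every siMYOF library than in any siGL3 library, MRPL15 and MRPS35 are higher, and MRPS15 is lower in every WJ460 library than in any DMSO library.

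Some members also differed between the control groups. Compared with DMSO, siGL3 had 7 members higher and 7 lower, beside 16.1% and 16% of all tested genes. These groups differ in transfection, solvent and culture together, which cannot be told apart, and since each is the control of 1 treatment the values are given side by side. MRPL51 had 1073, 1317 and 1471 in siGL3, 1731, 1815 and 1829.6 in siMYOF, 1971, 1827 and 1909 in DMSO and 2168, 2253 and 2402 in WJ460. Every siGL3 library lay below every other library, with a difference of -0.50 (adjusted p = 9.0e-05) from DMSO, and MRPL51 rose by 0.49 ± 0.07 (adjusted p = 1.4e-05) with siMYOF. It also rose by 0.26 ± 0.07 (adjusted p = 0.006) with WJ460, though not when scaled by total reads (adjusted p = 0.224). MRPL36 was likewise lower in siGL3 than in DMSO, with a difference of -0.51 (adjusted p = 0.0018), and MRPL17 higher, by 0.34 (adjusted p = 0.0082), with an adjusted p of 0.110 without siGL3 replicate 3. MRPL2 and MRPL3, both with opposite calls, were higher in siGL3 too, by 0.29 (adjusted p = 0.022) and 0.18 (adjusted p = 0.023). Without siGL3 replicate 3 their adjusted p was 0.190 and 0.094, and without DMSO replicate 2 it was 0.099 and 0.096. When scaled by total reads it was 0.068 and 0.111, and for MRPL3 without DMSO replicate 3 it was 0.060. MRPL32, which rose with both treatments, was lower in siGL3 than in DMSO, with a difference of -0.24 (adjusted p = 0.022). Without siGL3 replicate 2 its adjusted p was 0.151, and without DMSO replicate 1 or 3 it was 0.068 and 0.090.

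Batch went with a difference in many members. The early siRNA libraries had 11 members higher and 26 lower than the late ones, beside 21.2% and 23.8% of all tested genes. MRPS18A had 309, 837 and 954 in siGL3 and 299, 786 and 1025 in siMYOF, with the early library first each time and below every late one, a batch difference of -1.56 (adjusted p = 3.0e-10). MRPS18C differed by -0.91 (adjusted p = 9.3e-08) in the same direction. Both had no call with siMYOF, at -0.01 (adjusted p = 0.927) and -0.08 (adjusted p = 0.407). All 40 members called with siMYOF had the same sign in the early pair as in the late libraries. The calls came from a fit of these same libraries, which favours such agreement, so it is no independent support. With 1 early library a side no test could show that the sizes were alike. Among members chosen for their role, MRPL58, the peptidyl-tRNA hydrolase that frees stalled ribosomes, had -0.06 (adjusted p = 0.593) with siMYOF and 0.14 (adjusted p = 0.185) with WJ460, and MRPS30 had 0.09 (adjusted p = 0.426) and 0.13 (adjusted p = 0.256).

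Subunits of the mitochondrial ribosome with other names were also measured. Of 6 tested, 0 rose and 2 fell with siMYOF, and 4 rose and 0 fell with WJ460, or 0% and 33.3%, and 66.7% and 0%, of a very short list. In those empty classes limma gave 0 at an unadjusted p under 0.05, and edgeR and DESeq2 also called 0; scaled by total reads, 2 rose and 1 fell with WJ460. CHCHD1, a small-subunit protein, had 796, 583 and 682 in siGL3 and 399, 300.5 and 313 in siMYOF, and fell by 1.02 ± 0.08 (adjusted p = 3.1e-09). With WJ460 it rose by 0.33 ± 0.08 (adjusted p = 0.0013). That rise did not pass the test when scaled by total reads (adjusted p = 0.067) or without the batch term (0.063). PTCD3, which binds the small-subunit RNA, fell by 0.30 ± 0.07 (adjusted p = 0.0025) with siMYOF and rose by 0.66 ± 0.07 (adjusted p = 6.9e-07) with WJ460. DAP3, a GTP-binding protein of the small subunit, rose by 0.78 ± 0.06 (adjusted p = 1.1e-08) with WJ460, from 2401, 2318 and 2231 to 3933, 3889 and 4134.

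Of 25 tested factors that assemble the ribosome or modify its RNA, 6 rose and 7 fell with siMYOF, and 10 rose and 2 fell with WJ460. These are 24% and 28% with siMYOF and 40% and 8% with WJ460, beside the shares of all tested genes given above (28% and 25.9%, and 27.3% and 25.6%). Scaled by total reads the counts were 2 and 9 with siMYOF and 7 and 4 with WJ460. YBEY, an endoribonuclease, fell by 1.24 ± 0.16 (adjusted p = 2.1e-06) with siMYOF, RPUSD3, a pseudouridine synthase family member, by 0.93 ± 0.10 (adjusted p = 2.5e-07), and MALSU1, which keeps the subunits from joining early, by 0.50 ± 0.08 (adjusted p = 5.8e-05). MTERF3, a factor of mitochondrial transcription and ribosome assembly, rose by 0.36 ± 0.07 (adjusted p = 4.1e-04) with siMYOF and by 0.58 ± 0.07 (adjusted p = 2.6e-06) with WJ460. DHX30, an RNA helicase, and RPUSD4 rose with WJ460 by 0.60 ± 0.09 (adjusted p = 2.2e-05) and 0.53 ± 0.07 (adjusted p = 3.6e-06), while NGRN, an RNA-binding factor for the large-subunit RNA, fell by 0.50 ± 0.08 (adjusted p = 3.5e-05).

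Of 13 translation factors, 4 rose and 3 fell with siMYOF, and 5 rose and 0 fell with WJ460, or 30.8% and 23.1%, near the shares of all tested genes, and 38.5% and 0% beside 27.3% and 25.6%. By limma 0 fell with WJ460 at an unadjusted p under 0.05, and edgeR and DESeq2 also called 0, while scaling by total reads gave 1. The elongation factor GFM1 and the recycling factor MRRF rose with siMYOF by 0.73 ± 0.06 (adjusted p = 1.8e-08) and 0.66 ± 0.09 (adjusted p = 3.5e-06), and GUF1, a relative of bacterial LepA, fell by 0.66 ± 0.08 (adjusted p = 2.0e-06). The release factor gene MTRF1 rose with WJ460 by 0.91 ± 0.13 (adjusted p = 1.0e-05), and TUFM, the elongation factor that carries tRNA, by 0.29 ± 0.06 (adjusted p = 3.3e-04).

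Of 14 factors of mitochondrial transcription and RNA handling, 5 rose and 2 fell with siMYOF and 9 rose and 2 fell with WJ460, or 5 and 2 scaled by total reads. These are 35.7% and 14.3% with siMYOF, beside 28% and 25.9% of all tested genes, and 64.3% and 14.3% with WJ460, beside 27.3% and 25.6%. TFB2M, a transcription initiation factor, rose with both, by 0.53 ± 0.08 (adjusted p = 2.0e-05) and 0.80 ± 0.08 (adjusted p = 2.0e-07), and so did TFAM, which packs mitochondrial DNA, by 0.51 ± 0.06 (adjusted p = 1.0e-06) and 0.32 ± 0.06 (adjusted p = 1.8e-04). LRPPRC, which stabilises mitochondrial messengers, rose by 0.29 ± 0.07 (adjusted p = 9.0e-04) with siMYOF and fell by 0.43 ± 0.07 (adjusted p = 2.3e-05) with WJ460, while its partner SLIRP rose by 0.66 ± 0.08 (adjusted p = 1.5e-06) with WJ460. Of 9 tested regulators of nuclear genes for mitochondria, 4 rose and 1 fell with siMYOF and 3 rose and 2 fell with WJ460, or 2 and 4 scaled by total reads. In so short a list these are 44.4% and 11.1% with siMYOF and 33.3% and 22.2% with WJ460, beside the same shares of all tested genes. GABPA, the ETS factor whose site holds the core shown above, rose by 0.56 ± 0.09 (adjusted p = 4.5e-05) with siMYOF and had a difference of -0.17 (adjusted p = 0.133) with WJ460. NRF1 fell by 0.63 ± 0.09 (adjusted p = 8.8e-06) with WJ460, and YY1, named for the motif, differed by 0.03 (adjusted p = 0.761) with siMYOF and 0.07 (adjusted p = 0.429) with WJ460.

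Reads of the RNA partners of these proteins rose with WJ460. The libraries were made with an mRNA kit, so these reads may not follow the amount of ribosomal RNA. The large-subunit RNA, MT-RNR2, had 18465, 18117 and 18146 in DMSO and 27569, 33364 and 33264 in WJ460, a rise by 0.78 ± 0.09 (adjusted p = 2.6e-06), and the small-subunit RNA, MT-RNR1, rose by 0.92 ± 0.09 (adjusted p = 4.7e-07). Both were also higher in siGL3 than in DMSO, by 1.03 (adjusted p = 1.7e-06) and 0.62 (adjusted p = 1.9e-04), and neither passed the test with siMYOF, with differences of 0.22 (adjusted p = 0.053) and 0.01 (adjusted p = 0.967). All 13 messengers of mitochondrial DNA rose with WJ460, or 100% beside 27.3% of all tested genes, also when scaled by total reads. With siMYOF 6 rose, or 46.2% beside 28%, and there were 0 falls in either comparison. The siMYOF count was 5 with TMM scaling and by edgeR, 7 by DESeq2 and 4 when scaled by total reads. MT-ATP8 was among the 6 but had an adjusted p of 0.165 in the late libraries alone. By limma 0 fell at an unadjusted p under 0.05, and edgeR and DESeq2 also called 0 falls.

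Cytosolic ribosomal protein genes were counted beside them. Of 81 tested, 6 rose and 28 fell with siMYOF (median -0.09), or 7.41% and 34.6% beside 28% and 25.9% of all tested genes, and 60 rose and 2 fell with WJ460 (median 0.45), or 74.1% and 2.47% beside 27.3% and 25.6%. Scaled by total reads the counts were 2 and 43 with siMYOF and 50 and 4 with WJ460. In the difference between the effects 1 was higher and 65 were lower, or 80.2%, against 29 of 76 members, or 38.2%, and medians of -0.51 and -0.16. No test compared these lists, and genes of the cytosolic ribosome share reads with many pseudogenes. The members have 75 pseudogene entries of their own in the table, of which 15 had a read and 3 passed the filter; MRPL45P2 was highest, with a mean normalised count of 49.5 over the 12 libraries.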

How the data were processed

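RNA of 12 PANC-1 libraries was sequenced by the authors with a stranded mRNA kit and quantified with an nf-core pipeline (STAR and Salmon, GRCh38, Ensembl 97). Whether counting used strand is not given in the sources used here. The deposited signal values are gene read counts that the authors divided by 1 size factor per library, as 100% of the values came out as whole reads within 0.001 reads. Libraries were grouped by their labels. Values with a mean of at least 5 (14720 of 60617 genes) were tested on log2(value + 1) with limma 3.58.1 in R 4.3.3 (trend and robust variance), with group and batch as terms and all 12 libraries in 1 fit. The 4 groups thus shared 1 estimate of the spread. P-values were adjusted by Benjamini-Hochberg over all tested genes, and a gene was called at an adjusted p under 0.05. Differences are on the log2(value + 1) scale, which understates changes of low genes.

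edgeR 4.0.16 (quasi-likelihood) and DESeq2 1.42.0 on the recovered reads were tried, as were other scalings, pseudocounts and filters. Also tried were no batch term, a replicate block, only the 2 groups compared, the late libraries alone and leaving out each library. The limma step was tested on simulated data. Same-numbered siGL3 and siMYOF libraries deviated together (r of 0.82, 0.53 and 0.60 across genes), but late libraries of different number did so nearly as much (0.49 and 0.45), and early with late libraries had -0.61 to -0.68, so number and batch cannot be told apart for replicate 1. Same-numbered DMSO and WJ460 libraries did not (0.03, -0.002 and 0.005). Transcript lengths and overlaps came from GENCODE 44 and promoters from RefSeq (GRCh38.p14). Named members were, per treatment, the 8 largest called rises and falls, all opposite calls, called differences between the effects of at least 0.5, the 3 highest and 3 lowest levels per kb, and members picked for their role; pathway genes were up to 4 per list and treatment by smallest p. Members and lists were chosen with earlier results of these data known. Reads per library give the depth, and replicates the errors.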

Additional observations from a re-analysis of the deposited data

How the results depend on the processing

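Scaling by total reads gave 9 members higher with siMYOF, 18 higher and 11 lower with WJ460, and 4 higher and 11 lower in siGL3 against DMSO. Without the batch term 10 were higher with siMYOF, 1 lower with WJ460, 3 higher and 18 lower in the difference between the effects, and 3 higher and 3 lower between controls. Of the main calls, 25 of 40 remained with siMYOF, 22 of 36 with WJ460 and 21 of 37 in the difference. In this setting MRPL2, MRPL19, MRPL36 and MRPS36 lost the calls of both treatments. Without the filter on low values 13 were higher with siMYOF and 5 higher in the difference, and with late libraries alone 5 were higher in the difference. Leaving out 1 library at a time gave 13 to 20 higher and 16 to 24 lower with siMYOF, 27 to 32 higher and 2 to 5 lower with WJ460, 5 to 12 higher and 25 to 32 lower in the difference, and 3 to 8 higher and 4 to 12 lower between controls; without 1 early library the other adds nothing to the siRNA comparison, and groups left with 2 libraries shared the spread of the rest. With the replicate block, which pairs equal numbers, 20 were higher and 22 lower with siMYOF, 32 and 5 with WJ460, and 8 and 32 in the difference; it changed the named members' calls of MRPL12 and MRPS12 with siMYOF alone. With siMYOF edgeR called 16 higher and 23 lower and DESeq2 16 and 21, each sharing 36 of the 40 calls; with WJ460 edgeR shared 36 of 36 and DESeq2 33. With only the 2 groups compared in the fit, 33 of the 40 calls remained with siMYOF. Among those lost were MRPL54 (adjusted p = 0.055), MRPL19 (0.063) and MRPS36 (0.069). With WJ460 all 36 remained, and 40 members were called. The cause of these shifts was not tested. No called direction of the 37 tested named members turned under any alternative, and 117 of their comparisons with an alternative lost a call while 34 gained one. MRPL38 and MRPL12 had few reads (3 to 44 and 9 to 59 a library) and lie mostly inside another gene.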
